A study of Homo sapiens with 16 samples.

Results

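The fixed-antibody titration is a set of 7 K562 ChIP libraries, chosen by their labels from the 16 samples of the series, 14 of which have a peak list. K562 is a human erythroleukemia cell line, purchased from ATCC, and all 7 libraries were made from its fixed chromatin with the same 0.25 µg of an antibody against acetylated histone H3 lysine 27 (H3K27ac). The amount of chromatin, given as its DNA content (DNA_chrom), roughly doubled from 0.31 µg to 20 µg while the titer was halved at each step from 32 to 0.5. The high-titer group holds K562-H3K27ac-0.31-T32, K562-H3K27ac-0.62-T16 and K562-H3K27ac-1.25-T8, the low-titer group holds K562-H3K27ac-5-T2, K562-H3K27ac-10-T1a and K562-H3K27ac-20-T0.5, and K562-H3K27ac-2.5-T4 is the midpoint. The numbers in these names are the µg of DNA_chrom and, after the T, the titer, and the libraries are called T32, T16, T8, T4, T2, T1a and T0.5 in the following. Titer and DNA_chrom cannot be told apart here, because the titer falls as DNA_chrom rises. Each titer is 1 library, so the libraries of a group are not replicates of a condition, and a comparison of 3 with 3 cannot give an exact p below 0.10. The 7 libraries share 1 input library. The normalized arm, 7 libraries from the same amounts of DNA_chrom with the antibody scaled to titer 1, had another input and is given beside the titration for orientation.

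H3K27ac is laid down by the acetyltransferases p300 and CBP and removed by histone deacetylases. It marks active promoters, where it flanks the transcription start site (TSS), and active enhancers, which can lie far from any gene. In erythroid cells such enhancers are bound by GATA1, TAL1 and their partners, and stretches with many of them carry the mark over many kilobases.

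Peaks with a -log10 q-value of at least 2, a q-value of at most 1%, on chromosomes 1 to 22 and X were used, and positions are in GRCh38. A peak was called a promoter peak within 1 kb of the TSS of a protein-coding gene, gene-near between 1 and 50 kb from the nearest TSS, and far distal beyond 50 kb. The peaks of the 7 lists were joined where they overlapped, which gave 137822 regions. A region was held if all 7 lists had a peak in it, lost if all 3 low-titer lists and no high-titer list had one, and gained if all 3 high-titer lists and no low-titer list had one. The same rule was applied to the promoters of 19626 protein-coding genes.

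Of the promoters with a peak in any list most were held, and lost and gained promoters were few. Of the 19626 promoters, 9487 were held (48.3%), 68 were lost (0.346%) and 5 were gained (0.0255%), while 2056 had another pattern and 8010 had no peak in any of the 7 lists. Pairs of each class are printed here because their values are followed below, as the 250 bases before the TSS in the RefSeq promoters of GRCh38.p14, 5′ to 3′ on the strand of the gene, with the dinucleotide CG in capitals. They were chosen after their values were seen, among the named promoters that have an entry in the sequence table. GATA1, the master transcription factor of the red cell lineage (chrX:48786340-48786589, plus strand), and TFRC, the transferrin receptor (chr3:196082091-196082340, minus strand), were held.
GATA1: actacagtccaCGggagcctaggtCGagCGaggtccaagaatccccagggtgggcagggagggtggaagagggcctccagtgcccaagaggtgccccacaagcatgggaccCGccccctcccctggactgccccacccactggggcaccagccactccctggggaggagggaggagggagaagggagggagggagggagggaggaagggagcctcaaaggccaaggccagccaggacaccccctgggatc
TFRC: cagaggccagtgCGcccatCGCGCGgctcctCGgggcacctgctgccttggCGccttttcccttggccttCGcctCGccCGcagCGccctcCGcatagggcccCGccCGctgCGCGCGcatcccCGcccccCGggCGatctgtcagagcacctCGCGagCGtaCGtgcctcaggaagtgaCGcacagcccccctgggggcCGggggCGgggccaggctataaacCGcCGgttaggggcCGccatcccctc
SEC11C, a catalytic subunit of the signal peptidase complex (chr18:59139634-59139883, plus strand), and H2BC18, a histone H2B gene (chr1:149812371-149812620, minus strand), were lost.
SEC11C: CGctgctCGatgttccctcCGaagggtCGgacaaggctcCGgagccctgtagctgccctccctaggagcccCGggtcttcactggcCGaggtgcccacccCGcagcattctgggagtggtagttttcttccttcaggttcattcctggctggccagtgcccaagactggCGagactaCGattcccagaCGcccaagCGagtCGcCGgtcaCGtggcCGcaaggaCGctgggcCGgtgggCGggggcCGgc
H2BC18: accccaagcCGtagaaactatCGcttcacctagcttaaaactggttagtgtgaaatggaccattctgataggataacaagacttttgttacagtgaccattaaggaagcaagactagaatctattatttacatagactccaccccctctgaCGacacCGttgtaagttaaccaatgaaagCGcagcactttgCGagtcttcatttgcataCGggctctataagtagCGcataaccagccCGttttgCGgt
NTN5, a member of the netrin family (chr19:48673018-48673267, minus strand), and ERLN (chr17:75646001-75646250, plus strand) were gained.
NTN5: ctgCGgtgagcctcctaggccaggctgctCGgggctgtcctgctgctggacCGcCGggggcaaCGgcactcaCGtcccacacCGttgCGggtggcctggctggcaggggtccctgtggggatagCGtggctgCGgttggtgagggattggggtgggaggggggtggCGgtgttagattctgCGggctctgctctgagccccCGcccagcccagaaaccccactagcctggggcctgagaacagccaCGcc
ERLN: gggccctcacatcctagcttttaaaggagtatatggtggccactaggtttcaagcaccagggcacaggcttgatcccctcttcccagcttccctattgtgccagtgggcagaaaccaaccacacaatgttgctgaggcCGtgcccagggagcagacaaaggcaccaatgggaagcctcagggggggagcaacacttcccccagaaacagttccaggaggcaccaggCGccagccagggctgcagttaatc
These stretches hold 4 CG dinucleotides in GATA1, 29 in TFRC, 20 in SEC11C, 10 in H2BC18, 14 in NTN5 and 2 in ERLN. GATA1, held, and ERLN, gained, are thus both poor in CG. GATA1 is not typical of held promoters. In stretches of 300 bases, the 7210 held promoters with a matched entry had a median of 27 CG, beside 22 over all 13816 matched. Over all 35116 promoters of the table, 93.9% of such 250-base stretches hold at least 1 CG, on either strand since CG reads the same on both, and the median is 11. Entries were matched for 76.0% of held and 61.8% of lost promoters, too few for a comparison of base composition between the classes.

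Most promoters of erythroid transcription factors were held, and at GATA1 and LYL1 the enrichment fell as the titer rose. At the GATA1 promoter (TSS chrX:48786590), the fold enrichment over input of the strongest peak within 1 kb of the TSS from T32 to T0.5 measured 8.22, 7.28, 10.3, 12.0, 17.4, 20.2 and 25.3. The high- and low-titer libraries did not overlap, and the midpoint lay between them. LYL1, a transcription factor related to TAL1, had 8.99, 11.6, 14.1, 16.9, 22.4, 28.8 and 33.1 in the same order, rising at each step down in titer. TFRC, which brings iron into the cell, had 9.23, 12.7, 10.6, 13.3, 9.19, 17.2 and 18.3, so that T2 lay as low as T32 and the groups overlapped. HBG1, a fetal globin gene, had 5.35, 5.36, 5.23, 6.92, 8.85, 13.4 and 9.97. Reads of HBG1 and its near-identical neighbour HBG2 can be divided between the copies, which makes values of either uncertain. TAL1 and LMO2, transcription factors of blood formation, were also held. When peaks were placed by their summit, GATA1, TAL1 and LMO2 no longer had a promoter peak in every list. HBE1, the embryonic globin gene, had no peak within 1 kb of its TSS in T32, T16 and T2, and fold enrichments of 3.56 to 5.34 in the other 4 libraries. All 7 normalized lists had a peak there. HBB, the adult beta globin gene, had a promoter peak in T16 and T1a only. SLC4A1, the anion exchanger of the red cell membrane, lacked one only in T16. HBA2, an alpha globin gene with a near-identical copy, ANK1 and EPB42 of the red cell membrane skeleton, and BCL11A, a repressor of fetal globin, had no promoter peak in any of the 7 lists. No promoter of the 17 neuron genes had a peak in any of the 7 lists, and 1 of 16 liver genes had one, TF, the transferrin gene, which was held. Of 22 lymphoid genes, 4 to 8 had a promoter peak in each list and 4 were held, namely CD3D, CD7, CD79A and RAG1. All 7 normalized lists had a promoter peak at CD7, CD79A and RAG1, and only 2 had one at CD3D.

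**Figure D1:**
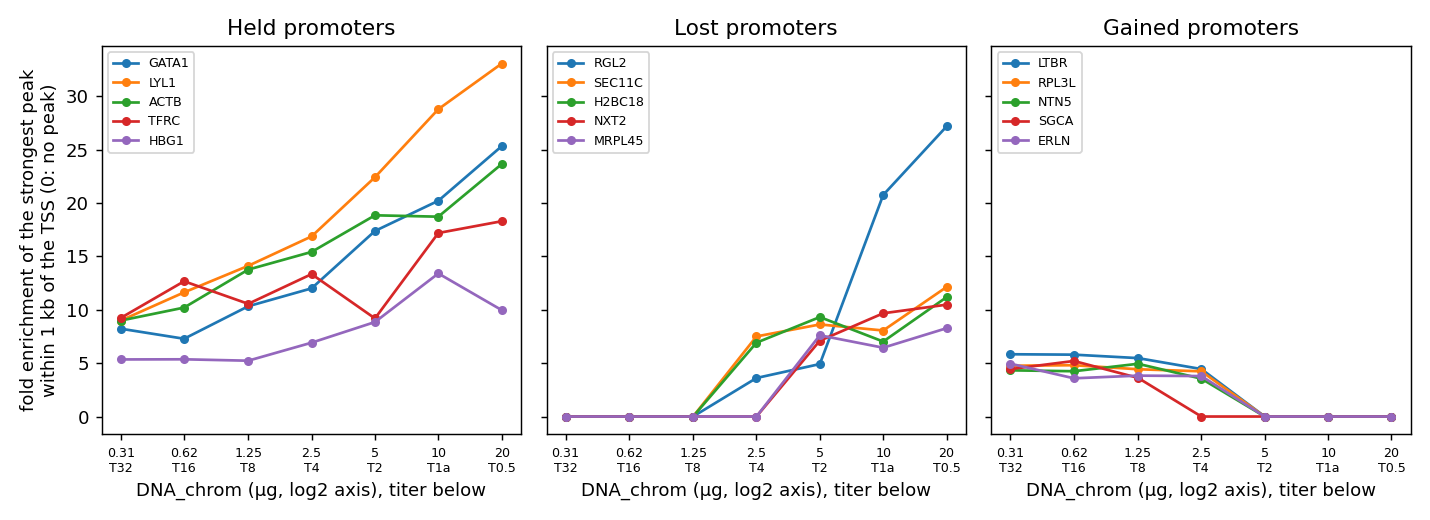
Fold enrichment of the strongest peak within 1 kb of the TSS (0 where there was no peak) against DNA_chrom on a log2 axis, with the titer below, for 5 held, 5 lost and 5 gained promoters, each point 1 library. The held GATA1 promoter goes from 8.22 in T32 to 25.3 in T0.5, while the gained promoters stay at or below 5.83.

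Gene groups were held to different extents. No promoter of these groups was lost or gained by the rule, beside 0.346% and 0.0255% of all promoters, shares at which lists of this size hold few such promoters or none. The 27 histone acetylation genes and the 13 heme synthesis genes were held throughout, and so were 77 of 78 cytosolic ribosomal protein genes, 30 of 31 proteasome genes, 14 of 16 immediate early and AP-1 genes and 12 of 15 erythroid transcription factors. The red cell surface and membrane genes were held in 14 of 25 cases, the globin genes in 7 of 10, the progenitor and myeloid transcription factors in 7 of 13 and the megakaryocyte and platelet genes in 5 of 14. All of these stand beside 48.3% of all promoters held. The members not held include those without a peak in any of the 7 lists, so these shares do not measure a response to titer. Such members were 8 of the 14 megakaryocyte and platelet genes, 4 of the 13 progenitor and myeloid transcription factors and 3 of the 25 red cell genes. Among all 19626 promoters they were 8010. Outside the lymphoid list, 15 members had a peak in some lists only, and 9 of them had none at the highest titer. That share is close to that of all 2056 promoters with another pattern, of which 64.5% had no peak in T32 and 43.0% none in T0.5. IKZF1, a lymphoid and erythroid transcription factor, and RHD, which encodes the Rh blood group D antigen, lacked a promoter peak only in T32. ADD2, a membrane skeleton gene, lacked one in T32 and T16. ITGB3, an integrin of platelets, had one in T4, T1a and T0.5 only. The reverse was seen at CEBPE, a myeloid transcription factor, which lacked a peak only in T0.5. KIT, the stem cell factor receptor, had a promoter peak in T16, T4 and T0.5, which follows no order of titer. RHD has a near-identical copy, so its peak is uncertain.

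Held promoters of nearly every gene group had lower fold enrichment at high titer. Over the 77 held ribosomal protein genes, the median fold enrichment was 7.57 in T32 and 15.6 in T0.5, and over the 12 held erythroid transcription factors it was 8.02 and 18.03. The median ratio of the high-titer to the low-titer mean was 0.61 for ribosomal protein genes, 0.60 for proteasome genes, 0.59 for heme synthesis genes, 0.58 for globin genes and 0.57 for erythroid transcription factors, beside 0.62 over all 9487 held promoters. The 4 held lymphoid genes had a median ratio of 0.87, and 2 of them were above 1. Among all held promoters, the ratio was above 1 at 150. ZBTB7A, a repressor of fetal globin, had 11.9, 14.4, 12.5, 16.1, 22.6, 29.5 and 30.7 from the highest titer to the lowest. IER2, an immediate early gene, had 10.5, 14.9, 13.1, 17.8, 21.8, 25.5 and 27.3. PSMD11, a subunit of the proteasome lid, had 10.4, 12.8, 10.5, 11.8, 10.9, 18.2 and 18.3, where the groups overlapped.

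Most lost promoters fell into 2 kinds. At the larger part the surroundings were without peaks at high titer too: 43 of the 68 had no covered base within 5 kb of the TSS in any high-titer list. At 16 of them, each high-titer list had a peak within 5 kb, so that the call turned on the position of a peak edge. RGL2, an exchange factor for Ral GTPases (TSS chr6:33301612), was of the second kind. It had no peak within 1 kb in the high-titer lists, and fold enrichments of 3.61, 4.91, 20.7 and 27.2 from T4 to T0.5, while the length covered within 5 kb was 2935, 4012 and 3299 bp in the high-titer lists and 4664, 4410 and 4883 bp in the low-titer lists. With a promoter window of 2.5 kb, by summit, or with all deposited peaks, the RGL2 promoter was no longer lost.

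SEC11C (TSS chr18:59139884) had no covered base within 5 kb at high titer and a single narrow peak of 161 to 172 bp at the other titers, with fold enrichments of 7.50, 8.62, 8.06 and 12.1 from T4 to T0.5. Only 1 of the 7 normalized lists had a peak there. H2BC18 (TSS chr1:149812370) and its neighbour H3C13, both histone genes expressed with DNA replication, share 1 peak, with 6.92, 9.31, 7.02 and 11.2 in the same 4 libraries, and all 7 normalized lists had it. Histone genes of this cluster have close copies, so the position is uncertain. MRPL45, a protein of the mitochondrial ribosome (TSS chr17:38297168), had no peak at titers from 32 to 4 and 7.61, 6.45 and 8.27 in T2, T1a and T0.5. NXT2, a factor of messenger RNA export (TSS chrX:109535824), had 7.10, 9.67 and 10.5 in these 3 libraries and no peak in any normalized list within 1 kb. With a window of 2.5 kb, or by summit, the NXT2 promoter was not lost. NBPF11, of a gene family with many near-identical copies on chromosome 1, and C9orf72 complete the 8 lost promoters of highest enrichment rank, and both were called in all 7 normalized lists. Over the 68 lost promoters, 26 were called in all 7 normalized lists, 2 in none, and 36 in T4.

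The 5 gained promoters had weak peaks. LTBR, the lymphotoxin beta receptor (TSS chr12:6375160), had fold enrichments of 5.83, 5.79, 5.47 and 4.45 from T32 to T4, and no peak at lower titer. RPL3L, a ribosomal protein of striated muscle, had 4.76, 4.81, 4.43 and 4.23 in these 4 libraries. NTN5 had 4.33, 4.24, 4.94 and 3.55, and ERLN had 4.95, 3.58, 3.83 and 3.79. SGCA, the alpha-sarcoglycan of muscle, had 4.44, 5.20 and 3.62 in the high-titer libraries only. Each value is below the median of all held promoters in its library, which was 6.96, 7.73, 8.20 and 9.24 from T32 to T4. At 3 of the 5, LTBR among them, every low-titer list had a peak within 5 kb, and with a window of 2.5 kb LTBR, NTN5 and ERLN were not gained. At a -log10 q of at least 5, RPL3L, NTN5, SGCA and ERLN had no more high-titer than low-titer lists, and LTBR was still gained. None of the 5 was called in all 7 normalized lists.

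By region, the classes differed in distance and width. Of the 137822 regions, 21654 were held (15.7%), 3576 were lost (2.59%) and 222 were gained (0.161%). Held regions were promoters in 10445 cases, gene-near in 7965 and far distal in 3244. Lost regions were promoters in 248, gene-near in 2153 and far distal in 1175. At promoters lay 6.94% of the lost and 48.2% of the held regions. This stands beside 11.5% of all regions and 4.55% of those neither held, lost nor gained. Gained regions were promoters in 11, gene-near in 172 and far distal in 39. The median distance to the nearest TSS was 1815 bp for held, 24144 bp for lost and 13521 bp for gained regions, beside 16445 bp over all regions. Held regions had a median width of 2003 bp, lost regions 633 bp and gained regions 559 bp, beside 348 bp over all regions. Membership in all 7 lists favours wide regions by construction, since joined peaks widen a region. In the lists that called them, the median percentile of fold enrichment was 80.9 for held, 41.4 for lost and 31.8 for gained regions. Lost regions were thus of middling rank at low titer and gained regions of low rank at high titer.

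In the normalized arm, lost regions were called more often than regions in general, and gained regions less often. For lost regions the class rule itself favours this. A lost region has a peak in all 3 low-titer lists, while 65509 of the 137822 regions have one in exactly 1 list. No comparison was made with regions called in as many lists. From the smallest to the largest amount of DNA_chrom, 55.8%, 63.6%, 71.1%, 66.2%, 71.3%, 72.8% and 75.5% of the lost regions had a peak in the normalized library, and 1259 had one in all 7 (35.2%). Over all 137822 regions the shares in the same order were 33.4%, 39.7%, 42.5%, 40.3%, 44.4%, 42.8% and 42.4%, with 22.9% in all 7. The share of lost regions rose with log2(DNA_chrom) at titer 1 (Pearson's r = 0.89, exact permutation p = 0.00496, adjusted p = 0.0066; Spearman's rho = 0.96, p = 0.00278; n = 7 libraries). Without the 2 libraries farthest from the median amount it was not past the threshold (r = 0.75, exact permutation p = 0.175, n = 5). With only 1 of them left out, r was 0.85 without 0.31-T1 (exact permutation p = 0.0347) and 0.86 without 20-T1 (p = 0.0292). Over all regions the share was also lowest at the smallest amount, and whether the rise differs between lost and other regions was not tested. Of the gained regions, 14.4% to 35.1% had a peak in a normalized library, with no trend over DNA_chrom (r = 0.37, exact p = 0.423, adjusted p = 0.423; rho = 0.29, p = 0.556; without the 2 farthest libraries r = 0.41, exact p = 0.508), and 4 had one in all 7 and 80 in none. Regions that were neither held, lost nor gained had one in 20.7% to 33.1%, a range that overlaps that of the gained regions. The midpoint library T4 called 48.4% of the lost and 36.0% of the gained regions.

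The lost regions of highest rank included narrow peaks beside held regions. Of the 8 lost regions with the highest mean percentile at low titer, those near TMEM107, PPP6R3, SNX16, TFPT and BNIP2 were 196 to 431 bp wide and lay 165 to 312 bp from a held region. The region at chr19:54115435-54115631, 26 bp from the TSS of TFPT, a gene of chromatin remodelling, had fold enrichments of 8.31, 9.50, 10.8 and 10.7 from T4 to T0.5, and a peak in all 7 normalized lists. The other 3 lay apart. The region at chr2:111493600-111494177, 245393 bp from the nearest TSS of a protein-coding gene and 76667 bp from a held region, had 6.42, 12.1, 11.5 and 12.7 in the same 4 libraries. The region at chr1:146934661-146935236, 3088 bp from the TSS of NBPF12, had 8.57, 10.1, 12.5 and 16.3, and lies in the same family of copies as NBPF11. The region at chr16:29622654-29622938, nearest to SPN, had 8.04, 9.13, 11.8 and 12.7. All 3 had peaks in all 7 normalized lists and none at titers of 8 or more. Of all lost regions, 22.1% lay within 500 bp of a held region, beside 14.9% of all regions and, counting other held regions, 23.4% of the held. When regions within 500 bp were joined, 1987 were lost.

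The gained regions of highest rank were single, modest peaks. The region at chr12:6374742-6376320, over the TSS of LTBR and also in the body of SCNN1A, was covered over 972, 1014 and 559 bp in the high-titer lists and 360 bp in T4. The region at chr20:63680268-63680857, in the body of RTEL1, a helicase of telomere maintenance, had 4.92, 7.54, 4.68 and 5.52 from T32 to T4. No normalized list had a peak in it. The region at chr19:11543863-11544598, in the body of CNN1, which encodes a calponin of smooth muscle, had 5.15, 4.38 and 5.33 in the high-titer lists only and no peak in any normalized list. The remaining 5, nearest to RAI1, SOCS1, ACBD4, CD82 and TNIP1, had fold enrichments of 4.13 to 6.63 at high titer and a peak in 1 or 2 normalized lists. Gained regions numbered 35 on chromosome 1, which is 15.8% of them, beside 9.45% of the lost and 10.7% of the held regions. Chromosomes 9, 11, 16 and 22 had 18 each, or 8.11%. In that order they had 3.47%, 4.81%, 3.30% and 2.21% of the lost regions and 4.18%, 5.69%, 5.02% and 2.80% of the held. The shares of all regions by chromosome were not taken.

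Along the titration, most regions found in some lists only followed no order of titer, and among those that did, more ran from the low end. Of the 50659 regions called in 2 to 6 lists, 20.2% were called without a gap from titer 0.5 up, 2.54% without a gap from titer 32 down, and 77.3% in neither way. From the low-titer end, 2697 regions were called at every titer up to 16 and not at 32, 1565 at every titer up to 8 and none above, 1731 up to 4, 1845 up to 2 and 2391 at 1 and 0.5 only. From the high-titer end, 644 regions were called at 32 and 16 only, 142 down to 8, 80 down to 4, 113 down to 2 and 310 at every titer but 0.5. At each number of lists, from 2 to 6, more regions ran from the low end than from the high end. The share of promoters fell along the first series, from 48.2% of regions held to 20.02% of those missing only at 32, 11.9%, 7.51%, 6.40% and 5.48% of those called at 1 and 0.5 only, and their median width fell from 2003 bp to 1133, 873, 709, 567 and 404 bp. Of the 1631 promoters called in 2 to 6 lists, 449 ran from the low end, 48 from the high end and 1134 from neither, with 273 missing only in T32 and 24 missing only in T0.5. Promoters called in a single list went the other way, with 80 in T32 only and 48 in T0.5 only. Regions called in exactly 1 list numbered 65509, with 6968 in T32, 9674 in T0.5 and 12029 in T2, and 2.70% of them were promoters.

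**Figure D2:**
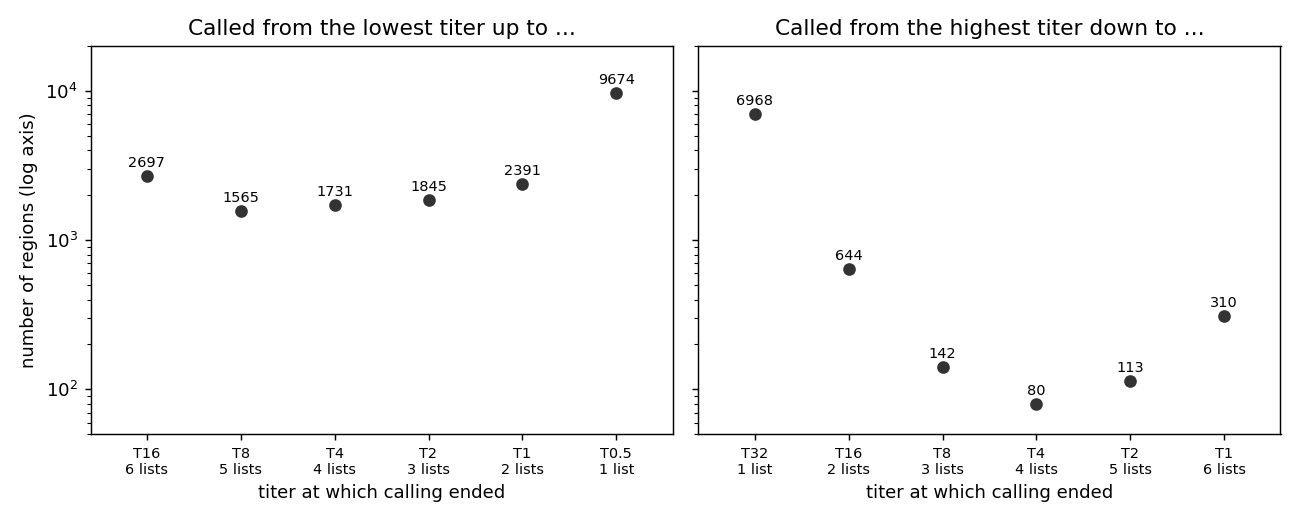
Number of regions, on a log axis, called without a gap from the lowest titer up to a given titer (left) or from the highest titer down to a given titer (right), leaving out the regions called in all 7 lists. The left side runs from 1565 to 9674 regions and the right side from 80 to 6968.

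The pattern was tested on regions that were not chosen from the titration, the 27114 reference regions with a peak in all 7 normalized lists. Those lists were all made at titer 1, so this choice favours lists near titer 1, and regions called only at high titer cannot enter. Of the reference regions, 909 had a peak in all 3 low-titer lists and no high-titer list, and 2 the reverse. The part of the choice in the fall of recovery with titer was not tested. Promoter regions were recovered at every titer and distal regions less often at high titer. A peak was found in 92.5%, 95.2%, 96.2%, 97.9%, 98.9%, 99.4% and 99.3% of the 11009 promoter regions from T32 to T0.5. For the 10812 gene-near regions the shares were 69.3%, 75.8%, 79.2%, 86.2%, 91.8%, 93.1% and 92.7%. For the 5293 far distal regions they were 63.6%, 71.4%, 75.2%, 85.1%, 90.9%, 93.6% and 93.8%. In each class the high-titer libraries lay below the midpoint and the low-titer libraries above it. The recovery of promoter regions minus that of far distal regions was 28.9 percentage points in T32 and 5.49 in T0.5, and averaged 24.6 ± 3.97 at high and 6.41 ± 1.38 at low titer (mean ± SD, n = 3 libraries each, exact permutation p = 0.10, the smallest 3 against 3 can give). It rose with log2(titer) (r = 0.97, exact permutation p = 0.000397, adjusted p = 0.000926; rho = 1, p = 0.000397; n = 7), and without the 2 farthest libraries r was 0.98 (exact p = 0.0167). The adjusted values are over 14 trends, which share libraries. Recovery fell with titer at promoters (r = -0.94, exact permutation p = 0.000794), in gene-near regions (r = -0.96, p = 0.000794) and in far distal regions (r = -0.97, p = 0.000397), with adjusted p of at most 0.00123.

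Reference promoter regions were stronger and wider than far distal ones, with a median percentile of fold enrichment of 87.8 against 72.1 in the normalized lists and a median covered length of 1714 against 1231 bp. The difference was therefore also taken within 5 equal bins of the reference regions by that percentile. In the weakest bin, T32 recovered 65.5% of promoter, 46.1% of gene-near and 38.5% of far distal regions. In the strongest bin it recovered 99.7%, 99.6% and 98.5%. The mean difference between promoter and far distal regions over the 5 bins from T32 to T0.5 came to 15.1, 12.7, 10.9, 6.13, 4.12, 3.06 and 2.46 percentage points. These values were smaller than without the bins at every titer, and they kept the order of titers.

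The result depended on what counts as recovery. When a peak and a reference region had to cover at least 50% of each other, recovery fell to 18.1% of promoter and 4.80% of far distal regions in T32 and to 69.2% and 48.5% in T0.5. Under that rule recovery still fell with titer in both classes, but their difference was smallest at the highest titer, 13.3 percentage points in T32 and 20.7 in T0.5, and its trend over titer turned (r = -0.73, exact permutation p = 0.0504). The difference was largest in T2, at 24.4 percentage points. A difference of shares is bounded near the floor, as for far distal regions in T32 here, and near the ceiling, as for promoter regions without that rule. The part of these bounds in either trend was not tested.

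**Figure D3:**
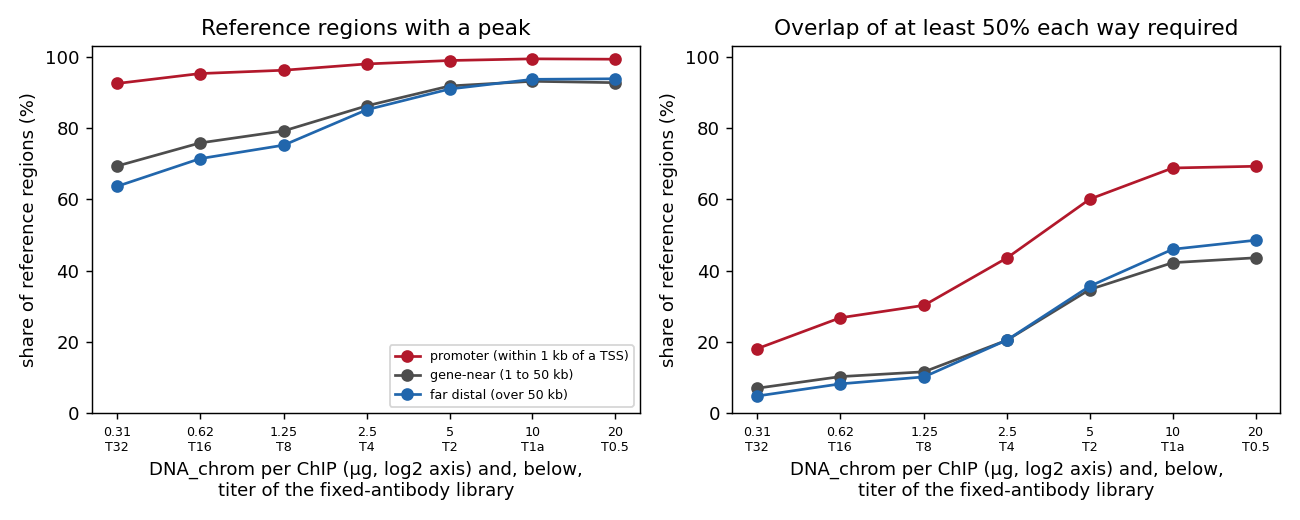
Share of reference regions (peaks in all 7 normalized lists) with a peak in each fixed-antibody library, against DNA_chrom on a log2 axis, by distance to the TSS; at least 1 shared base is required on the left and 50% of both the peak and the region on the right. On the left the classes spread from 92.5% to 63.6% at T32 and lie between 92.7% and 99.3% at T0.5.

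As a measure of how far lists differ at 1 titer, the peaks of T1a were also compared with 10-T1b, the normalized library of the same DNA_chrom and titer. Of the T1a peaks, 93.4% at promoters, 61.0% gene-near and 63.9% far distal overlapped a 10-T1b peak. The overlap with T0.5 was 93.2%, 59.3% and 64.2%, and with T2 91.9%, 59.7% and 61.2%, close to these values. With T32 it was 80.5%, 35.3% and 33.7%, and with T8 85.6%, 43.3% and 42.3%. A list that covers fewer bases has less room for overlap. The peaks of T32 covered 32.8 Mb and those of T8 41.3 Mb, beside 61.7 Mb in T2, 63.4 Mb in T0.5 and 72.2 Mb in 10-T1b. The part of covered length in the overlap was not tested.

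The median peak width of a list was lower at high titer, and it differed more for promoter peaks than for other peaks. These medians count each peak of a broken region separately and are not taken over the same regions. Within held regions the order was the reverse. There the median ratio of high-titer to low-titer covered length was 0.70 at promoters, 0.63 gene-near and 0.58 far distal. The median width of promoter peaks was 559, 641 and 669 bp at high titer, 811 bp in T4, and 981, 1079 and 1095 bp at low titer. It fell by 99.9 bp per doubling of the titer (r = -0.98, exact permutation p = 0.000397, adjusted p = 0.000926; rho = -1, p = 0.000397; n = 7; without the 2 farthest libraries r = -0.98, exact p = 0.0167). The median width of the other peaks went from 309 bp in T32 to 378 bp in T0.5 (r = -0.98, exact permutation p = 0.000794, adjusted p = 0.00123). Peaks of at least 2 kb numbered 1141, 1960 and 2320 at high titer, 3899 in T4, and 6106, 7231 and 7329 at low titer (r = -0.98, exact permutation p = 0.000397, adjusted p = 0.000926; rho = -1). The high-titer mean of 1807 ± 604 was 0.262 times the low-titer mean of 6889 ± 680 (mean ± SD, n = 3 libraries each, exact permutation p = 0.10).

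Promoter peaks made up a larger share of the lists at high titer, 22.3% to 24.1% against 18.6% to 19.9% (r = 0.88, exact permutation p = 0.0111, adjusted p = 0.012; rho = 0.86, p = 0.0238). Without T32 this was r = 0.80 (exact p = 0.0556). Promoter peaks numbered 15453 to 15943 at high and 14657 to 15236 at low titer. A promoter region broken into several peaks is counted once for each peak. Held promoter regions had a mean of 1.90 peaks in T32 and 1.40 in T0.5, and the part of this in the share was not tested. Far distal peaks numbered 11582 to 13595 at high and 16133 to 17219 at low titer (r = -0.90, exact permutation p = 0.00675, adjusted p = 0.00787). Fewer genes had a promoter peak at high titer, 10221, 10500 and 10442, than at low titer, 10742, 10836 and 10727 (r = -0.91, exact permutation p = 0.00516, adjusted p = 0.0066), 0.965 times the low-titer mean, where far distal peaks came to 0.760 times. When peaks were placed by their summit instead of their nearest edge, the trend in genes was not past the threshold (r = -0.66, exact p = 0.0948). For the trends over titer whose rank correlation is not given, Spearman's rho was 0.86 to 1 in size, with an exact permutation p of at most 0.0238. With the 2 most distant libraries by titer left out, r stayed between 0.94 and 0.98 in size in all 12 trends over titer, with the same signs (exact permutation p of 0.0167 or 0.0333, n = 5).

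**Figure D4:**
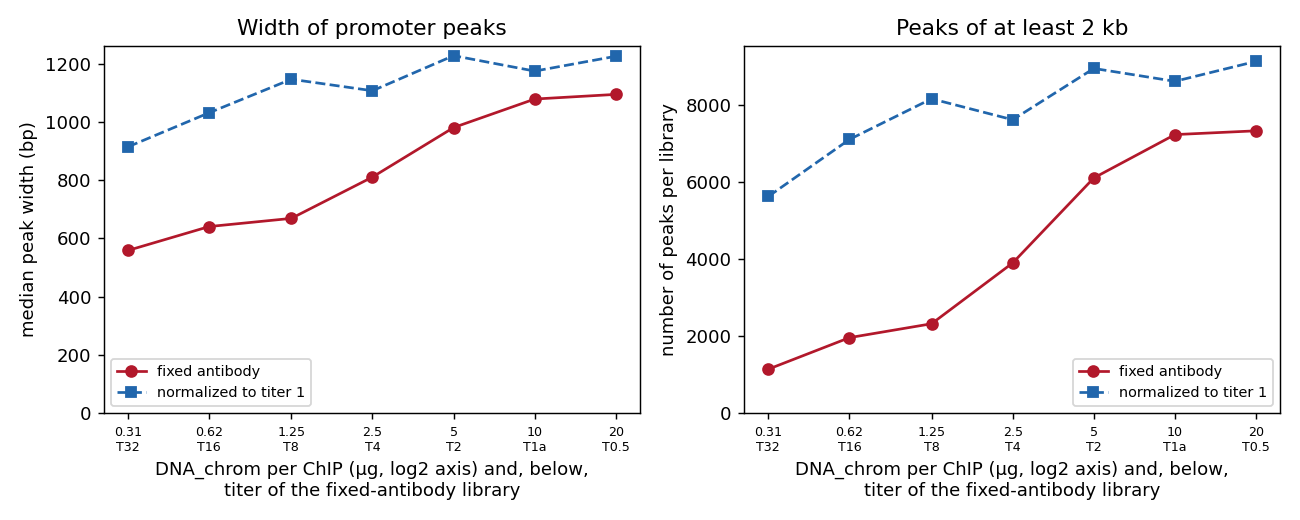
Median width of promoter peaks (left, bp) and number of peaks of at least 2 kb (right) per library against DNA_chrom on a log2 axis, for the fixed-antibody libraries (circles) and the normalized libraries (squares). In the fixed-antibody arm the width goes from 559 to 1095 bp and the number of broad peaks from 1141 to 7329.

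The normalized libraries also had narrower peaks at small amounts. Promoter peaks there had median widths of 915 to 1147 bp from the 3 smallest amounts and 1175 to 1228 bp from the 3 largest, and broad peaks numbered 5625 to 8161 and 8614 to 9133. Per doubling of DNA_chrom, broad peaks rose by 1172 in the fixed-antibody arm and by 511 in the normalized arm, and promoter width by 99.6 and 46.4 bp. The difference of the arms at equal DNA_chrom was related to log2(DNA_chrom) for broad peaks (r = 0.85, exact permutation p = 0.0198) and promoter width (r = 0.83, p = 0.0236), and neither was past the threshold after adjustment over the 6 measures compared in this way (adjusted p = 0.0619 for each). Arm and input cannot be told apart in this comparison.

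Most of the length lost at high titer lay inside held regions. Bases covered in all 3 low-titer lists and in no high-titer list came to 6.19 Mb, of which 66.2% lay inside held regions and 12.0% inside lost regions. Of the 104 Mb covered in any of the 7 lists, held regions took 53.7% and lost regions 2.40%. Bases covered in all 3 high-titer lists and in no low-titer list came to 0.0891 Mb. The median covered length of held promoter regions was 962, 1109 and 1180 bp at high titer, 1363 bp in T4, and 1557, 1636 and 1627 bp at low titer. For held far distal regions it was 735, 891 and 995 bp, then 1298 bp, then 1580, 1711 and 1728 bp. Per region, the ratio of the high-titer to the low-titer mean had a median of 0.70 at promoters, 0.63 gene-near and 0.58 far distal. Covered length was lower at high titer in 97.3% of held promoter regions. The signal was also broken up more often, since 48.1% of held promoter regions had more than 1 peak in T32 and 29.0% in T0.5.

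The fold enrichment of held regions fell with titer at promoters and away from them. The median over the 10445 held promoter regions was 6.59, 7.31 and 7.71 at high titer, 8.70 in T4, and 10.0, 12.0 and 12.6 at low titer (r = -0.98, exact permutation p = 0.000397, adjusted p = 0.000926; rho = -1; n = 7). Over all other held regions it was 5.32, 5.62 and 5.98, then 6.46, then 7.19, 8.32 and 8.64 (r = -0.98, exact permutation p = 0.000397, adjusted p = 0.000926; rho = -1). The high-titer mean was below the low-titer mean in 98.1% of held promoter, 90.4% of held gene-near and 94.4% of held far distal regions. When every peak of a list was counted, median fold enrichments went from 5.83 in T32 to 10.5 in T0.5 at promoters, and only from 4.36 to 4.51 in gene-near and from 4.37 to 4.82 in far distal peaks.

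**Figure D5:**
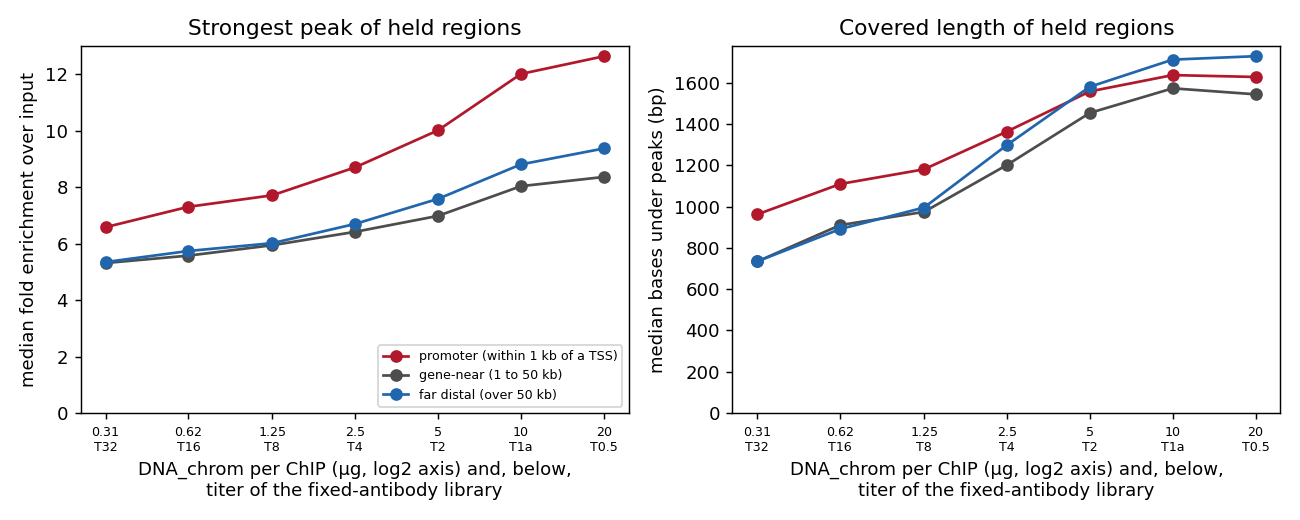
Median fold enrichment of the strongest peak (left) and median bases under peaks (right) in the regions held in all 7 lists, by distance to the TSS, against DNA_chrom on a log2 axis. Promoter regions go from 6.59 to 12.6 in fold enrichment and from 962 to 1627 bp in covered length, and far distal regions from 735 to 1728 bp.

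The widest held regions kept most of their length. In the region at chr2:96862987-96902105, in or overlapping the body of FAM178B, the covered length was 24287, 26170 and 29421 bp at high titer, 32742 bp in T4, and 35756, 35768 and 36312 bp at low titer. The region at chr16:85549248-85575825 in GSE1, a gene of a histone deacetylase complex, had 21852, 23595 and 23839 bp, then 23755 bp, then 25594, 25929 and 26089 bp. In the region of HSPG2, the gene of perlecan (chr1:21892904-21915939), the covered length was 19657 to 20492 bp at high and 21662 to 22556 bp at low titer. Those of SLC16A3, a lactate transporter (chr17:82225060-82248770), and EGFL7, a secreted factor and host of the microRNA miR-126 (chr9:136654759-136678758), had 16423 to 20273 and 16776 to 19368 bp at high titer against 21498 to 22313 and 20430 to 21498 bp. In each of these 5 the high-titer values were below the low-titer values. They were chosen by the low-titer lists, and the normalized lists, which did not enter the choice, covered 20997 to 37338 bp of them on average.

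Some held promoters lost most of their covered surroundings. Over all 9487 held promoters, the median ratio of the high-titer to the low-titer covered length was 0.65. CD69, an early activation antigen of leukocytes, had 1658, 3483, 3562, 5106, 6816, 7653 and 7613 bp covered within 5 kb of its TSS from T32 to T0.5, with no overlap between the groups. CPEB4, a regulator of translation, had 2835, 2384, 4241, 4747, 6686, 8108 and 7729 bp. BTK, a tyrosine kinase, and RPL36A, a ribosomal protein gene, are divergent neighbours and share 1 peak, with 1217, 2020 and 1929 bp at BTK at high titer and 5694, 5979 and 5607 bp at low titer. These promoters were among those with the largest falls between the groups and were chosen for them. The normalized lists covered 6480 to 8107 bp at CD69 and 4568 to 6510 bp at BTK.

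Among promoters that the study used as positive loci in its PCR assays, SMARCA4, GAPDH and PABPC1 were held. MYT1, a neural gene used as a negative locus, had no promoter peak in any of the 14 lists, and the intergenic negative locus was not analysed here. At SMARCA4, a chromatin remodelling ATPase, the fold enrichment was 7.90, 10.5, 13.3, 13.8, 18.8, 18.5 and 19.9 from the highest titer to the lowest. At GAPDH, a glycolytic enzyme, it was 10.6, 9.48, 11.5, 13.4, 16.8, 20.1 and 24.3, and at PABPC1, the poly(A)-binding protein, 9.35, 9.31, 11.7, 11.4, 15.0, 16.6 and 20.1. At all 3 the high-titer libraries lay below the low-titer libraries. In the normalized libraries, all at titer 1, SMARCA4 had 11.1 to 15.7, GAPDH had 11.6 to 19.6 and PABPC1 had 14.2 to 18.4. By summit GAPDH no longer had a promoter peak in every list.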

How the data were processed

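H3K27ac ChIP-seq peak lists of K562 were used, 1 list for each of 14 libraries. The authors aligned the reads (BWA 0.5.9 and CASAVA 1.4 per the labels), called peaks in each library separately with MACS2 against the input of its arm, and deposited, per peak, the position, a fold enrichment (a ratio over input, with no further normalization between lists), a -log10 p-value and a -log10 q-value. The deposited lists reach down to a -log10 q of 1.30. The score that the authors deposited for each peak, a whole number written by the peak caller, was not used. The labels name hg38, and peaks run past the GRCh37 ends of 7 chromosomes, so positions were read as GRCh38, although the paper names hg19. The lists hold no read counts, so the depth behind a peak is unknown. The study gives read totals per library, which were not used here, and the part of depth in the trends was not tested.

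From these files, peaks whose -log10 q reached 2 on chromosomes 1 to 22 and X were taken, and overlapping peaks of the 7 fixed-antibody lists were joined into regions. Up to 0.0686% of the peaks of a list lay on other sequences. The percentile of a peak is that of its fold enrichment within its own list. TSS came from RefSeq genes of GRCh38.p14, with the strand from GENCODE v44 by symbol and chromosome (19074 genes) or from the promoter table (552 genes), for 19626 of 19970 protein-coding genes. Groups were taken from the labels.

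Trends were tested against log2(titer), or log2(DNA_chrom) for the normalized libraries, by exact two-sided permutation over all 5040 pairings of 7 libraries, and groups of 3 by exact permutation over 20 assignments. Adjustment followed Benjamini and Hochberg over the 14 trends. No test was made of the sizes of the classes held, lost and gained, nor of gene lists. Some of the trends do rest on the classes. They are the fold enrichment of held regions, which were chosen from the same 7 lists, and the calls of lost and gained regions in the normalized arm. Interval functions and tests were tested on simulated data. Named promoters and regions were loci of the study's assays and 3 neighbouring genes, the K562 markers, the members of each gene list of highest mean percentile, the 8 lost and 8 gained regions and promoters of highest mean percentile in the 3 lists that called them, the 6 widest held regions and the 6 held promoters with the largest fall in covered length; not all of them are printed with values, and a few are not reported here. The titration, its groups, the gene lists and the tests were chosen with earlier results of these data known. Alternatives were stricter and looser q-values, lists of equal size, other windows and placements, joining at 500 bp, reciprocal overlap, linear scales, other class rules and leaving out each library. The 5 bins by percentile and the comparison of slopes between the arms were added after the data were seen. Computation used Python 3.11.15 with numpy 2.4.6, pandas 2.3.3, scipy 1.17.1 and matplotlib 3.10.9.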

Additional observations from a re-analysis of the deposited data

How the results depend on the processing

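Of 104 alternative values of the 12 trends over titer, not counting libraries left out, 102 kept their direction and their side of the threshold, including all 12 with lists of equal size. The exceptions were the genes with a promoter peak by summit (r = -0.66, exact p = 0.0948) and the recovery difference with 50% reciprocal overlap (r = -0.73, exact p = 0.0504). On linear scales the trend of lost regions in the normalized arm was r = 0.71 (exact p = 0.0669) and that of gained regions r = -0.0095 (exact p = 0.984). The cause was not tested in any of these 4.

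Counts of classes moved more. Gained regions numbered 110 at a -log10 q of at least 3 and 10 at 5, and 2384 when 2 of 3 lists sufficed, a rule that also gave 11977 lost regions, 182 lost promoters and 56 gained promoters. Joining within 500 bp gave 1987 lost regions. Held regions numbered 12375 at a -log10 q of 5. Lost promoters were 118 at a -log10 q of 3 and 285 at 5. Gained promoters were 8 and 2 at these, 13 with equal list sizes, 12 with a 2.5 kb window and 67 by summit.

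Values of named promoters and regions stayed the same in 356 cases and moved in 44, and none turned; by summit GATA2, held by peak edge, was called in all 3 high-titer lists and in no low-titer list.

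Leaving out 1 library in turn, r for the promoter share ranged from 0.80 (without T32, exact p = 0.0556) to 0.97, and the other trends over titer stayed past the threshold. Since a class then rests on fewer lists, lost regions ranged from 3625 to 7162 (highest without T2), gained regions from 222 to 1061 (highest without T8), lost promoters from 68 to 156 (without T8) and gained promoters from 5 to 25 (without T32). No paired analysis was possible because each titer is 1 library and the high- and low-titer groups share no replicate numbers. The arms were set against each other at equal DNA_chrom, which pairs amounts of chromatin and not replicates. With 1 library per titer, differences between neighbouring titers cannot be set against replicate error.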
